A study of Mus musculus with 18 samples.

Results

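Slc7a12 and Gm6300 are neighbouring genes on mouse chromosome 3, and their RNA was followed in the right kidneys of 18 mice. The members were taken by gene name, as 2 of the 32675 genes in the table, and both were chosen by their measured FPKM and log2 fold changes between the groups in earlier results of these data. Their group differences are therefore given as a description, without a test. All mice were wild-type male C57BL/6 mice bought at 6 weeks of age and acclimatized for 7 days. The 6 Ctrl mice were handled and not defeated. The 6 StressPbs mice underwent chronic social defeat stress (CSDS), in which a mouse is put with an aggressive CD-1 resident for 10 min a day on 14 days, and received intraperitoneal phosphate-buffered saline daily. The 6 StressFlx mice underwent the same stress with daily fluoxetine, a selective serotonin reuptake inhibitor, at 10 mg per kg. No injection is described for the Ctrl mice, so that defeat and injection cannot be told apart in comparisons with them.

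Slc7a12 encodes Asc-2, a transporter of small neutral amino acids and a light chain of the SLC7 family. Most light chains of this family reach the plasma membrane bound to a heavy chain, Slc3a1 (rBAT) or Slc3a2 (4F2hc). Neither heavy chain is taken here as a partner of Asc-2. Transporters of the family take amino acids back from the tubule fluid or pass them to the blood side of kidney epithelium. Gm6300 is annotated as an unprocessed pseudogene, the kind that arises when a gene is duplicated with its introns and then loses an intact reading frame.

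Slc7a12 (ENSMUSG00000039710) lies at chr3:14480697-14505830 and Gm6300 (ENSMUSG00000104375) at chr3:14363117-14377587, both on the plus strand of GRCm38. Between the end of Gm6300 and the start of Slc7a12 lie 103109 bases with 0 other genes of the table. The GENCODE transcripts Slc7a12-201 (1741 bases) and Gm6300-201 (1498 bases) each have 4 exons. The first 3 exons are nearly the same length, with 761, 132 and 362 bases in Slc7a12 and 760, 131 and 363 bases in Gm6300, and the last has 486 and 244 bases. Over 1375 aligned bases the transcripts were identical at 77.7%, and over 1361 aligned coding bases at 77.6%, with 28 bases in gaps. The Slc7a12 reading frame holds 465 residues. In Gm6300 the frame that starts at the aligned start codon reached a stop after 230 codons.

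Whether reads of such a pair can be told apart bears on every value below, so 3 aligned coding stretches are shown for each gene, read from the GRCm38 transcripts on the plus strand from 5′ to 3′, with the bases that differ in capitals. From the start codon, in exon 1, 22 of 120 bases differed.
Slc7a12 (chr3:14480797-14480916): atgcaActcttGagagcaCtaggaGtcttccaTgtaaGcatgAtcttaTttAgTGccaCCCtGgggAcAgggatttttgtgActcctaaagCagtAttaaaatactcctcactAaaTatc
Gm6300 (chr3:14363210-14363329): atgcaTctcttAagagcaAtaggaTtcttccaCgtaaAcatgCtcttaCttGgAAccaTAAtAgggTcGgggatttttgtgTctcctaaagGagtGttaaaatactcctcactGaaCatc

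The ungapped coding stretch of 120 bases with the fewest differences, also in exon 1, had 20 differing bases.
Slc7a12 (chr3:14481187-14481306): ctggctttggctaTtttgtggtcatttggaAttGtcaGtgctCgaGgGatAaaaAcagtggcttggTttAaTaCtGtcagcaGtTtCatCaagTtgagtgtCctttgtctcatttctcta
Gm6300 (chr3:14363600-14363719): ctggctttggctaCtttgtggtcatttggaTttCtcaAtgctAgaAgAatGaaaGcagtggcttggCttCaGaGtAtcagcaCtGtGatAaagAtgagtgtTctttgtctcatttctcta

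The stretch with the most, in exon 2, had 38 differing bases of 120.
Slc7a12 (chr3:14497238-14497357): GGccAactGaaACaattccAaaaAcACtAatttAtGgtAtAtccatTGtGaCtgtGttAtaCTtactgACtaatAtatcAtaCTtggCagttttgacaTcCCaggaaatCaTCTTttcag
Gm6300 (chr3:14370800-14370919): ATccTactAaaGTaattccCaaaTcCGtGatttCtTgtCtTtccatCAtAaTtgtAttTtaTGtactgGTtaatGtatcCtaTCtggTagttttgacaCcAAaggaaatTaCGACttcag

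The longest run without a difference was 47 bases, shorter than the 150-base reads. Among 1247 windows of 150 Slc7a12 bases with at least 145 aligned, the transcripts differed at 16 to 51 bases (median 33). Unaligned Slc7a12 bases were counted as differing, and extra Gm6300 bases in gaps were not counted. They shared 17 stretches of 31 bases, of 1711 in Slc7a12 and 1468 in Gm6300. The other annotated gene with shared 31-base stretches was Gm38311, a processed pseudogene, with 32 (1.87%) of those of Slc7a12. No other GENCODE gene shared a 31-base stretch with Gm6300. The methods read here do not say how reads that fit both genes were counted.

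**Figure D1:**
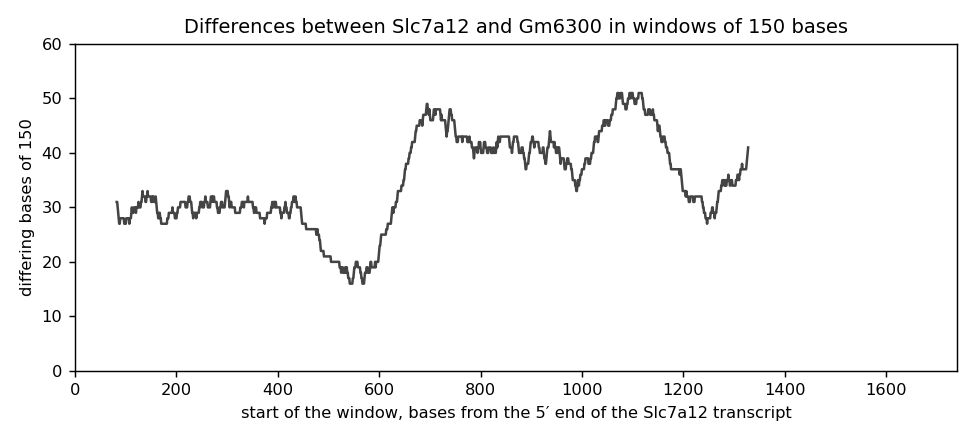
Number of bases that differ between the Slc7a12 and Gm6300 transcripts in each window of 150 bases with at least 145 aligned (y axis), by the start of the window, in bases from the 5′ end of the Slc7a12 transcript (x axis). Every window differs at 16 bases or more, and the line is lowest for windows that start in the later part of exon 1. Differences are counted over Slc7a12 bases, without extra Gm6300 bases in gaps.

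Levels are given as FPKM, fragments per kilobase of exon scaled to the mapped fragments of the mouse, which can be set side by side between the genes because they are per length. The ratio of the exon lengths implied by counts and FPKM was 1.16 to 1.18 in all 18 mice, near the ratio of the transcript lengths (1.16). Total counts were 73000203 to 78650116 in Ctrl and 72149987 to 78711121 in StressPbs. In StressFlx they were 74093215 and 79061296 in replicates 2 and 1 and 48928823 to 52073640 in replicates 3 to 6. Kidney markers were present in every group, with Slc34a1, the phosphate transporter of the proximal tubule, between 362 and 912 FPKM over the 18 mice and Umod, the uromodulin of the thick ascending limb, between 695 and 1259 FPKM. StressPbs replicate 6 stood apart from the other mice. Its summed FPKM of 7 S3 (late proximal tubule) markers was 54.7 against 386 to 818 in the other 17 mice, and that of 6 tubule injury genes was 3970 against 288 to 938. The study left out a saline-treated mouse that neither the labels nor the methods name, so values are given with and without replicate 6.

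Slc7a12 was low in Ctrl kidney and higher in 11 of the 12 defeated mice. In Ctrl mice it lay between 1.46 and 2.81 FPKM, with a median of 1.77 (mean 1.96 ± 0.524, SD, n = 6). In StressPbs mice it lay between 0.708 and 28.7 FPKM, with a median of 21.9 (18.5 ± 10.4, SD, n = 6). Of these mice 5 were above all Ctrl mice, at 12.2 to 28.7 FPKM, and replicate 6 was below all Ctrl mice. StressFlx mice were in between, from 5.86 to 14.9 FPKM with a median of 7.46 (9.10 ± 3.63, SD, n = 6), and 6 of 6 were above every Ctrl mouse. In bulk kidney RNA, fewer cells that express a gene and less RNA per cell cannot be told apart. StressFlx and StressPbs overlapped, also without replicate 6, when 4 of 6 StressFlx mice were below all 5 StressPbs mice.

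Gm6300 had the reverse order of group means. In Ctrl mice it lay between 11.9 and 33.5 FPKM, with a median of 28.2 (25.6 ± 7.73, SD, n = 6). In StressPbs mice it lay between 0.110 and 4.38 FPKM, with a median of 1.60 (1.85 ± 1.43, SD, n = 6), and 6 of 6 were below every mouse of the other groups. In StressFlx mice it was between 6.67 and 33.9 FPKM with a median of 11.9 (17.5 ± 12.3, SD, n = 6), overlapping Ctrl. StressFlx replicates 3 and 6, at 32.5 and 33.9 FPKM, were at the top of the Ctrl range, and the other 4 were at 6.67 to 12.3. Within StressFlx, the 2 deeper mice had 11.6 and 12.3 FPKM of Gm6300 and the other 4 had 6.67 to 33.9, while Slc7a12 was at 6.62 and 14.9 FPKM in the former and 5.86 to 12.3 in the latter. For a pseudogene Gm6300 was abundant, as its Ctrl mean ranked 10 among 454 unprocessed pseudogenes of the table, which had a median of 0.0126 FPKM. Both members were chosen by their group differences, and how many of all tested genes separate the groups in this way was not counted.

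**Figure D2:**
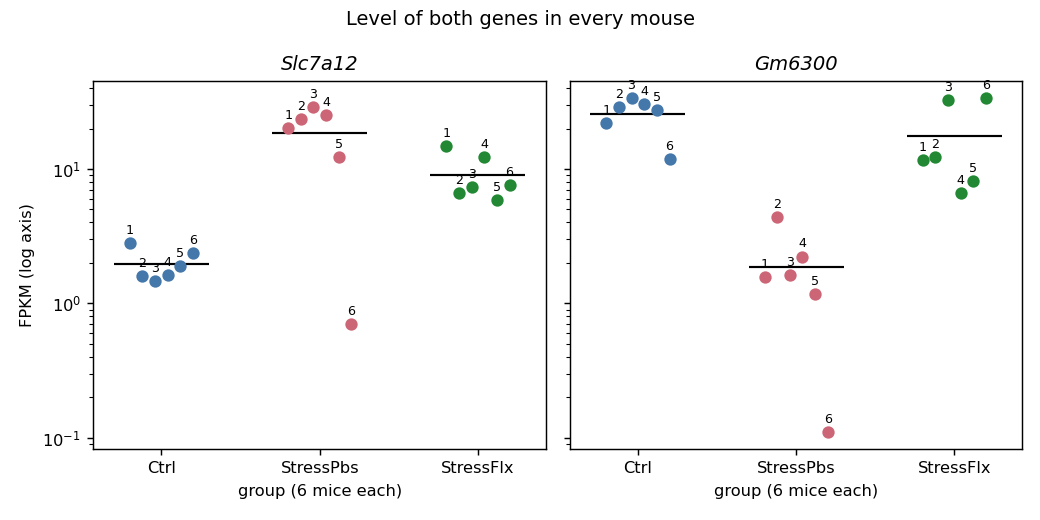
FPKM of Slc7a12 (left) and Gm6300 (right) on a log axis for the 6 mice of each group, numbered by replicate, with the group mean as a line. Slc7a12 is lowest in Ctrl except for StressPbs replicate 6, and all StressPbs mice lie below all others for Gm6300.

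From edgeR's fit over all 18 mice, Slc7a12 was higher in StressPbs than in Ctrl by a log2 fold change of 3.23 (SE 0.52), or 3.49 without StressPbs replicate 6. Gm6300 was lower by a log2 fold change of -3.77 (SE 0.58), or -3.52 without that mouse. In FPKM, the StressPbs mean of Slc7a12 was 9.42 times the Ctrl mean, and the Ctrl mean of Gm6300 was 13.8 times that of StressPbs. Between StressFlx and StressPbs the log2 fold changes were -1.12 (SE 0.48) for Slc7a12 and 3.15 (SE 0.57) for Gm6300, or -1.37 and 2.90 without replicate 6. Between StressFlx and Ctrl they were 2.12 (SE 0.50) and -0.62 (SE 0.52). The first 2 comparisons share the StressPbs mice, so their opposite signs are not separate observations. Among the 19946 genes tested, Gm6300 ranked 5 from the lowest in StressPbs versus Ctrl and 5 from the highest in StressFlx versus StressPbs, while Slc7a12 ranked 49 from the highest in StressPbs versus Ctrl.

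The balance of the pair, which is described without a test, placed every mouse apart from those of the other groups. Slc7a12 made up 4.18 to 16.5% of the summed FPKM of both genes in Ctrl (median 5.87%), 84.3 to 94.6% in StressPbs (median 91.6%) and 18.2 to 64.8% in StressFlx (median 38.4%). No pair of groups overlapped in this share, with or without StressPbs replicate 6. Both genes were chosen by their group differences, and other gene pairs were not examined for such a separation. Slc7a12 exceeded Gm6300 in 0 of 6 Ctrl mice, 6 of 6 StressPbs mice and 2 of 6 StressFlx mice. StressPbs replicate 6 had little RNA of either gene and yet a share of 86.5%. It rested on 106 and 14 counts, of which Slc7a12 held 88.3% (95% Wilson interval 81.4 to 92.9%, which covers counting error only). The deposited counts may count each fragment more than once, in which case the interval is too narrow.

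The summed FPKM of both genes overlapped between all groups. It was 27.6 ± 7.34 in Ctrl, 20.3 ± 11.3 in StressPbs and 26.6 ± 11.6 in StressFlx (SD, n = 6 each), and 24.2 ± 6.82 in StressPbs without replicate 6 (SD, n = 5). The range was 14.3 to 34.9 FPKM in Ctrl, 13.4 to 30.3 in the other 5 StressPbs mice and 14.05 to 41.4 in StressFlx.

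**Figure D3:**
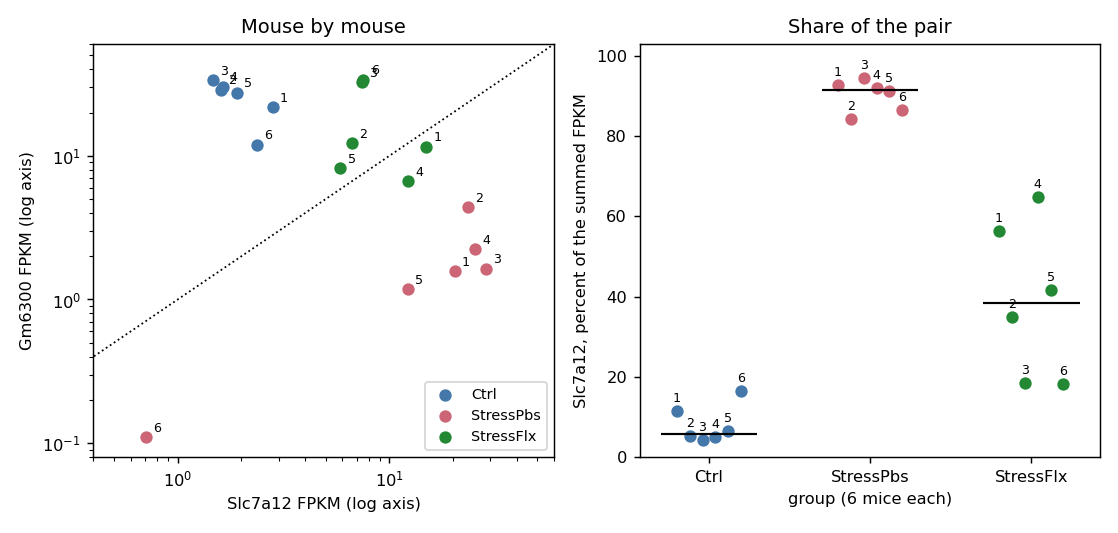
Left, Gm6300 against Slc7a12 in FPKM on log axes, 1 point per mouse numbered by replicate, with a dotted line at equal levels. Right, Slc7a12 as a percent of the summed FPKM of both genes, with the group median as a line. Ctrl mice lie above the equal line and StressPbs mice below it, and the shares of the 3 groups do not overlap.

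The difference between the groups chose the genes, but the relation between mice of 1 group did not, and it was tested on log2(FPKM + 0.1) in 12 relations. Those with the male-biased list, given below, use a list that was chosen with earlier results of these data known. Within groups, Slc7a12 and Gm6300 had no relation of a fixed sign. In Ctrl mice Pearson's r was -0.72 (two-sided exact permutation p = 0.075, adjusted 0.113, n = 6) and Spearman's rho was -0.89 (exact p = 0.0333, adjusted 0.0667), and r was -0.88 without the 2 mice farthest from the median Slc7a12 level. In StressPbs mice r was 0.93 (exact p = 0.0236, adjusted 0.0567, n = 6) and rho 0.77 (exact p = 0.103, adjusted 0.154), and r was -0.043 without the 2 farthest mice, so that it rests on them. Over the other 5 StressPbs mice without replicate 6 r was 0.51 (exact p = 0.342). In StressFlx mice r was -0.29 (exact p = 0.585, adjusted 0.585, n = 6) and rho -0.086 (exact p = 0.919, adjusted 0.943), and r was 0.98 over the remaining 4 mice. The smallest exact p that 6 mice allow is 0.00139 for r and 0.00278 for rho. Over all 18 mice with group means subtracted, r was 0.63 (permutation p = 0.114, adjusted 0.152), rho -0.067 (permutation p = 0.831, adjusted 0.943) and r -0.13 without the 2 farthest mice. When StressPbs replicate 6 alone was left out r was -0.16 (permutation p = 0.617). In StressFlx the depths split into 2 and 4 mice, too few for a correlation within each.

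The male-biased list holds 13 genes of the mouse kidney that are known to be higher in males, many of them under androgen control. It includes Slco1a1 and Acsm3, the genes most like Gm6300 over all 18 mice (r = 0.97 for each). Since the list was chosen with earlier results known, the p values below are not free of that choice. Gm6300 followed this list within each group. Pearson's r with the mean log2 level of the list was 0.95 in Ctrl mice (two-sided exact permutation p = 0.00278, adjusted 0.0111, n = 6), 0.98 in StressPbs mice (exact p = 0.00139, adjusted 0.00833) and 0.96 in StressFlx mice (exact p = 0.00833, adjusted 0.025). Spearman's rho was 0.94 (exact p = 0.0167, adjusted 0.05), 1 (exact p = 0.00278, adjusted 0.0167) and 0.89 (exact p = 0.0333, adjusted 0.0667). Without the 2 farthest mice r was 0.92, 0.93 and 0.74. Over the 18 mice with group means subtracted, r was 0.95 and rho 0.94 (permutation p = 1e-05 for each, the smallest that 100000 permutations can give, adjusted 0.00012), and r was 0.92 without the 2 farthest mice. Without StressPbs replicate 6, r was 0.93 over 17 mice (permutation p = 1e-05) and 0.99 over the other 5 StressPbs mice (exact p = 0.00833).

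Members of the list differed in how closely they followed Gm6300. With group means subtracted, 11 of 13 had a positive r with Gm6300 over 18 mice (median 0.82), led by Slco1a1 (0.90), an organic anion transporter, and Acsm3 (0.90), a medium-chain acyl-CoA synthetase. Cyp4a12b (-0.41), a fatty acid hydroxylase, and Gusb (-0.15), the lysosomal beta-glucuronidase, were negative. All 13 were positive without StressPbs replicate 6, from 0.22 to 0.84 (median 0.69). These values are descriptions over mice that share their libraries with the list. By the same measure over 18 mice, genes outside the list followed Gm6300 as closely, such as Slco3a1 (0.93) and Fuca2 (0.92), while Apoe was at -0.92. Whether the relation is particular to male-biased genes was not tested.

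For Slc7a12 the relation with the male-biased list changed with 1 mouse. Pearson's r was -0.76 in Ctrl mice (two-sided exact permutation p = 0.0639, adjusted 0.11, n = 6), 0.97 in StressPbs mice (exact p = 0.0431, adjusted 0.0861) and -0.29 in StressFlx mice (exact p = 0.556, adjusted 0.585). Spearman's rho was -0.94 (exact p = 0.0167, adjusted 0.05), 0.77 (exact p = 0.103, adjusted 0.154) and 0.086 (exact p = 0.919, adjusted 0.943). Without the 2 farthest mice r was -0.77, 0.0093 and 0.99, and over the 5 StressPbs mice other than replicate 6 it was 0.40 (exact p = 0.508). With group means subtracted, r was 0.73 (permutation p = 0.139, adjusted 0.167, 18 mice) and rho -0.029 (permutation p = 0.943, adjusted 0.943), r was -0.26 without the 2 farthest mice, and without StressPbs replicate 6 r was -0.28 (permutation p = 0.313, 17 mice). Of the 13 genes, 10 had a positive r with Slc7a12 over 18 mice and 4 without that mouse.

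**Figure D4:**
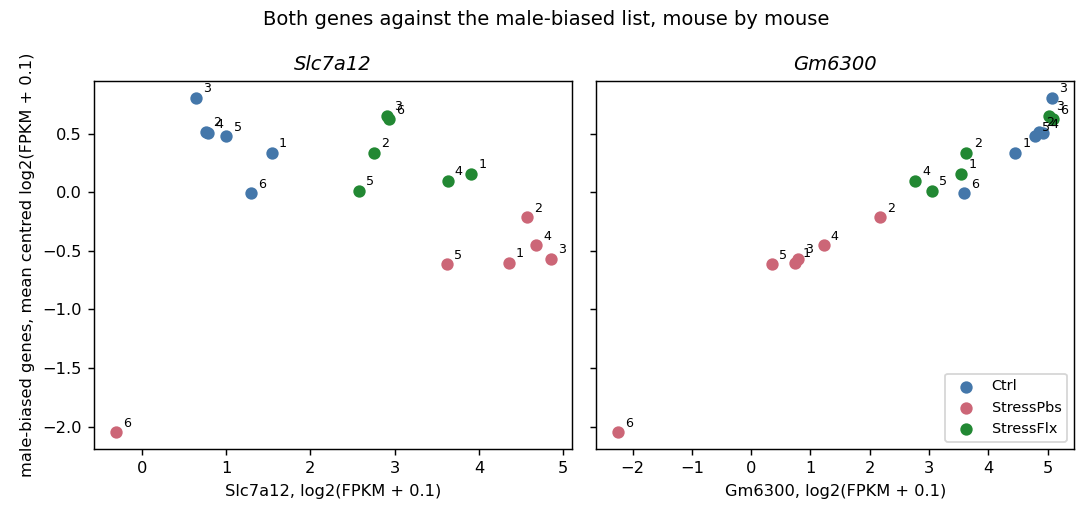
Mean of the centred log2(FPKM + 0.1) of 13 male-biased kidney genes (y axis) against log2(FPKM + 0.1) of Slc7a12 (left) and Gm6300 (right), 1 point per mouse numbered by replicate. The list rises with Gm6300 within each group, with StressPbs replicate 6 lowest on both axes of each panel, while for Slc7a12 the other mice of the 3 groups lie in separate clouds.

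The male-biased list was also compared between the groups, beside all genes tested with edgeR's quasi-likelihood test at an adjusted p under 0.05. In StressPbs versus Ctrl, 6 of 13 fell and 0 rose, where 1.82% of all tested genes were called lower and 2.45% higher, and the median log2 fold change was -0.74 (-0.59 without StressPbs replicate 6) against -0.00132 over all genes. At an unadjusted p under 0.05, 0 of 13 were higher and 9 lower. DESeq2 and limma also called 0 higher, and they called 6 and 5 lower. Slco1a1 went from 31.1 ± 13.5 FPKM in Ctrl to 3.90 ± 2.18 in StressPbs (SD, n = 6), a log2 fold change of -2.97 (edgeR adjusted p = 0.00238). Acsm3 went from 147 ± 17.0 to 30.4 ± 16.5 FPKM (log2 fold change -2.26, edgeR adjusted p = 0.00462). Cyp4b1, a P450 of xenobiotic and fatty acid oxidation, went from 1041 ± 227 to 397 ± 62.7 FPKM (log2 fold change -1.40, edgeR adjusted p = 0.000309). Cyp4a12a, Kap, the kidney androgen-regulated protein gene, and Gusb also fell, by log2 fold changes of -1.99, -0.92 and -0.28 (edgeR adjusted p = 0.00357, 0.0445 and 0.0301). Kap was not called by limma. Neither Kap nor Gusb was called with the replicate block, with only the 2 groups compared or with only the 2 deeper StressFlx mice.

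In StressFlx versus StressPbs, 4 of 13 rose and 0 fell, where 0.226% of tested genes were called higher and 0.331% lower. These were Slco1a1, Acsm3, Cyp4a12a and Cyp4b1, with log2 fold changes of 2.26, 1.82, 1.67 and 1.04 (edgeR adjusted p from 0.0107 to 0.043). At an unadjusted p under 0.05, 7 were higher and 0 lower, and DESeq2 and limma called 4 higher and 0 lower. In StressFlx versus Ctrl, 0 of 13 were called, where 1.01% of tested genes were called higher and 0.762% lower. There, 1 of 13 was lower at an unadjusted p under 0.05, and DESeq2 and limma called 0. With only the 2 deeper StressFlx mice, edgeR called 0 genes in StressFlx versus StressPbs and 1265 were under an unadjusted p of 0.05, so that these 4 calls were lost. Their log2 fold changes in that fit were 1.9, 1.49, 1.43 and 1.21 (edgeR adjusted p from 0.514 to 0.788). Cyp4b1 was still called with the replicate block and with only the 2 groups compared (edgeR adjusted p = 0.0308 and 0.0484). Slco1a1, Acsm3 and Cyp4a12a were called in neither fit (edgeR adjusted p from 0.0576 to 0.142). The balance of higher and lower calls over all genes differed between the fits. In StressPbs versus Ctrl edgeR with upper-quartile scaling called 356 higher and 497 lower, against 489 and 364 with TMM scaling, and limma on log2(FPKM + 0.1) called 399 and 435. In StressFlx versus StressPbs limma called 199 higher and 56 lower, against 45 and 66 with edgeR. In StressFlx versus Ctrl limma called 576 and 140 and edgeR with upper-quartile scaling 145 and 206, against 202 and 152.

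Without StressPbs replicate 6 the shares of all genes called were 2.14% higher and 1.67% lower in StressPbs versus Ctrl, 0.306% and 0.42% in StressFlx versus StressPbs, and 2.08% and 1.59% in StressFlx versus Ctrl. The counts of the male-biased list were the same in the 3 comparisons without it. Of 4 female-biased genes, 2 rose in StressPbs versus Ctrl, where 2.45% of all tested genes were called higher. Prlr, the prolactin receptor, went from 1.54 ± 0.619 to 4.11 ± 1.42 FPKM (log2 fold change 1.42, edgeR adjusted p = 0.0143), and Cyp4a14, a fatty acid hydroxylase, from 51.3 ± 34.1 to 347 ± 496 FPKM (2.73, edgeR adjusted p = 0.0183). StressPbs replicate 6 had 1357 FPKM of Cyp4a14, and without it the log2 fold change was 1.51 (edgeR adjusted p = 0.0328). With only the 2 groups compared Cyp4a14 was not called (edgeR adjusted p = 0.0588). The other 2 genes, Slc22a7 and Akr1c18, had log2 fold changes of -1.37 and -1.20 (edgeR adjusted p = 0.107 and 0.204).

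Of 15 genes for hormone receptors and STAT5 signalling, Prlr rose and Thra, a thyroid hormone receptor, fell in StressPbs versus Ctrl (log2 fold change -0.43, edgeR adjusted p = 0.00971). Over all tested genes 2.45% were called higher and 1.82% lower in this comparison. Nr3c1, the glucocorticoid receptor, was at 8.14 ± 1.5 FPKM in Ctrl, 6.76 ± 1.03 in StressPbs and 8.20 ± 0.856 in StressFlx (SD, n = 6), with an edgeR adjusted p of 0.205 in StressPbs versus Ctrl. In the other 2 comparisons edgeR called 0 of the 15 genes, near the shares over all tested genes. These were 0.226% higher and 0.331% lower in StressFlx versus StressPbs and 1.01% and 0.762% in StressFlx versus Ctrl. Of the 15, 1 was higher and 3 lower at an unadjusted p under 0.05 in StressFlx versus StressPbs, and 1 was lower in StressFlx versus Ctrl. DESeq2 called 1 lower in the former, and edgeR did so without StressPbs replicate 6, when Prlr was lower by -1.28 on the log2 scale (edgeR adjusted p = 0.0282).

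Of 14 other Slc7 family genes and the 2 heavy chain genes, 14 of 16 were tested. The family genes include cationic amino acid transporters that bind no heavy chain. In StressPbs versus Ctrl 0 passed edgeR's test, near the shares over all tested genes (2.45% called higher and 1.82% lower). Of the list, 4 were higher at an unadjusted p under 0.05, and DESeq2 called 3 higher and limma 0. The median log2 fold change of the 14 tested genes was 0.18, or 0.07 without StressPbs replicate 6. In StressFlx versus StressPbs 0 were called, where 0.226% of all tested genes were called higher and 0.331% lower. Of the list, 4 were lower there at an unadjusted p under 0.05, and DESeq2 called 1 lower and limma 0. Slc7a9, the light chain of renal cystine uptake, was lower in StressFlx than in Ctrl, at 28.8 ± 2.03 against 37.3 ± 5.45 FPKM (SD, n = 6, log2 fold change -0.46, edgeR adjusted p = 0.0411). It was the only edgeR call of the list there, where 0.762% of all tested genes were called lower and 1.01% higher. DESeq2 also called it, and limma, the fit with the replicate block and that with only the 2 deeper StressFlx mice (-0.32, edgeR adjusted p = 0.731) did not. The most abundant relative, Slc7a13, the S3 light chain that pairs with Slc3a1, was at 285 ± 37.2 FPKM in Ctrl, 182 ± 91.0 in StressPbs and 303 ± 64.5 in StressFlx, and at 6.44 in StressPbs replicate 6. Slc3a1 was at 236 ± 19.2, 201 ± 50.2 and 233 ± 23.3 FPKM, and Slc3a2 at 34.4 ± 4.48, 48.2 ± 14.3 and 38.3 ± 7.70. Their edgeR adjusted p in StressPbs versus Ctrl was 0.462, 0.439 and 0.104 for Slc7a13, Slc3a1 and Slc3a2.

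Of 19 other amino acid transporters of the tubule, 1 rose in StressPbs versus Ctrl and 0 fell, near the shares over all tested genes (2.45% and 1.82%). It was Slc38a2, a sodium-coupled transporter of small neutral amino acids, which went from 4.49 ± 0.653 to 7.57 ± 1.59 FPKM (log2 fold change 0.76, edgeR adjusted p = 0.0055) and was at 7.22 ± 1.23 FPKM in StressFlx (0.60 versus Ctrl, edgeR adjusted p = 0.0349). Slc6a19, the main neutral amino acid transporter of the brush border, was lower in StressFlx at 30.5 ± 3.94 FPKM than in StressPbs at 50.9 ± 13.1 (log2 fold change -0.81, edgeR adjusted p = 0.0275) and in Ctrl at 55.5 ± 11.2 (-0.94, edgeR adjusted p = 0.0069). These were the only calls of this list in the 3 comparisons by edgeR. Over all tested genes 0.331% were called lower in StressFlx versus StressPbs, and 1.01% higher and 0.762% lower in StressFlx versus Ctrl. Slc38a2 versus Ctrl was not called in StressFlx with the replicate block (edgeR adjusted p = 0.054). Slc6a19 versus StressPbs was not called with only the 2 groups compared (edgeR adjusted p = 0.0587). With only the 2 deeper StressFlx mice the calls in StressFlx were lost, with log2 fold changes of 0.45 for Slc38a2 versus Ctrl and -0.68 and -0.81 for Slc6a19 versus StressPbs and Ctrl (edgeR adjusted p from 0.446 to 0.787). Cltrn, the partner protein of Slc6a19, was at 853 ± 49.5, 801 ± 164 and 723 ± 52.3 FPKM in Ctrl, StressPbs and StressFlx.

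Genes around the pair were examined next. Within 500 kb of either member the table lists 13 other genes, of which 8 passed the filter on low counts. In StressPbs versus Ctrl edgeR called 0 of 8, with log2 fold changes from -0.31 to 0.83. That is near the shares over all tested genes, of which 2.45% were called higher and 1.82% lower. Of the 8, 2 were higher and 1 lower at an unadjusted p under 0.05, and DESeq2 called 1 higher and limma 0. Without StressPbs replicate 6 Car2, a carbonic anhydrase, was called, at 0.58 on the log2 scale (edgeR adjusted p = 0.00577) against 0.47 (edgeR adjusted p = 0.0637) over all mice, and it was at FPKM of 111 ± 12.5 in Ctrl, 154 ± 32.8 in StressPbs and 129 ± 14.5 in StressFlx. In StressFlx versus StressPbs the 8 genes were between -0.91 and 0.45, and in StressFlx versus Ctrl between -0.67 and 1.25, with 0 called by edgeR, DESeq2 or limma and 1 lower at an unadjusted p under 0.05 in the former and 0 in the latter. Over all tested genes edgeR called 0.226% higher and 0.331% lower in the former and 1.01% and 0.762% in the latter.

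The tested genes nearest to Slc7a12 were Lrrcc1, a centrosomal protein gene, at 1.51 ± 0.264 FPKM in Ctrl, 1.23 ± 0.149 in StressPbs and 1.36 ± 0.212 in StressFlx, E2f5, a cell cycle transcription factor, at 16.3 ± 0.890, 15.0 ± 3.37 and 17.1 ± 2.12, and Rbis, a ribosome biogenesis factor, at 15.2 ± 2.00, 14.8 ± 0.758 and 14.5 ± 0.973. The other tested neighbours were the carbonic anhydrases Car13 (0.821, 1.48 and 1.47 FPKM in the same order) and Car3 (23.9, 42.0 and 60.5 FPKM, with an SD of 92.5 in StressFlx), Ralyl, which lies upstream of Gm6300 (0.228, 0.182 and 0.169 FPKM), and the lincRNA A930001A20Rik (0.0472, 0.0551 and 0.0285 FPKM). Those that did not pass the filter were Car1, Gm8957, Gm17119, Gm16399 and Gm7132.

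**Figure D5:**
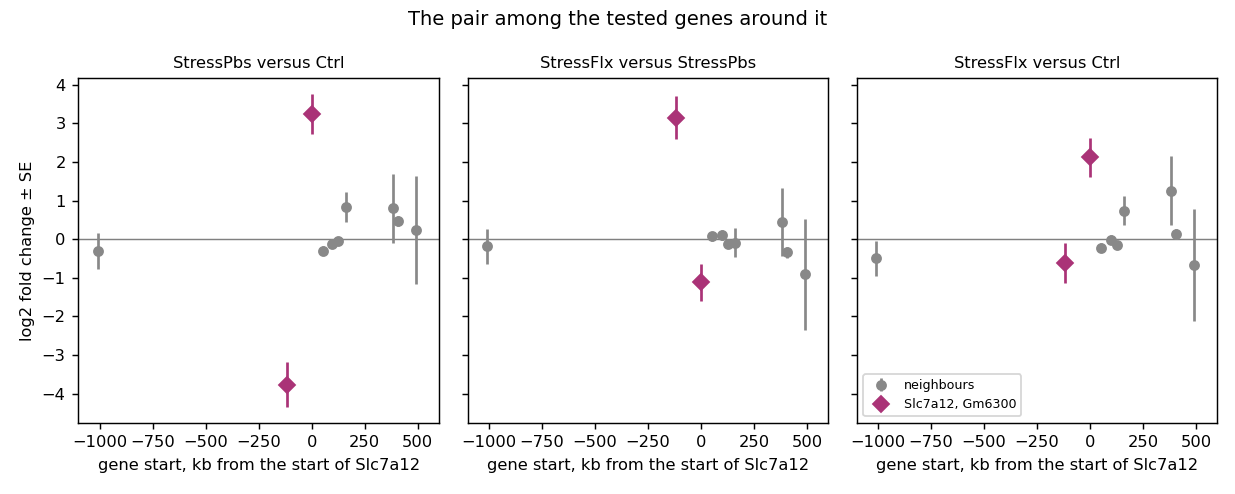
Log2 fold change with its standard error (y axis) for Slc7a12 and Gm6300 (diamonds) and the 8 tested neighbours (circles), by the start of each gene in kb from the start of Slc7a12 (x axis), 1 panel per comparison. In StressPbs versus Ctrl the members lie at 3.23 and -3.77 and the neighbours between -0.31 and 0.83.

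Genes with the most similar profiles were sought by Pearson's r of log2(FPKM + 0.1) among the tested genes, as a description over mice that share library and depth. For Gm6300 over all 18 mice these were Slco1a1 (r = 0.97), Acsm3 (0.97), Fuca2, a lysosomal fucosidase (0.97), Lipo3 (0.97), Sucnr1, the succinate receptor (0.96), Pzp (0.95), C1qtnf3 (0.95), Ldhd, a mitochondrial D-lactate dehydrogenase (0.95), Glyat, which conjugates acyl groups to glycine (0.95), and Galns (0.95). Of these 10, 8 were also among the 10 highest without StressPbs replicate 6. The lowest values were for Cyp2d22 (-0.94), Apmap (-0.94), Tm6sf2 (-0.93), Ifngr1, an interferon gamma receptor chain (-0.92), and Cbr1, a carbonyl reductase (-0.92). Cbr1 was at 16.2 FPKM in Ctrl, 52.5 in StressPbs and 17.3 in StressFlx, and at 156 in StressPbs replicate 6.

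With group means subtracted, the highest values with Gm6300 were for Slco3a1 (0.93), Tmigd1 (0.92), Sucnr1 (0.92), Fuca2 (0.92) and Agps (0.92), and the lowest for Apoe, the lipid carrier apolipoprotein E (-0.92), Cyp2d22 (-0.92), Rps4x (-0.91), Ccl6 (-0.89) and Ifngr1 (-0.89). Without StressPbs replicate 6 these 10 lay between 0.81 and 0.84 and between -0.84 and -0.74.

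For Slc7a12 over all 18 mice the highest values were for Kcnk5, a potassium channel of the proximal tubule (0.90), Uap1 (0.88), Mzb1 (0.87), Adra2b, an alpha-2 adrenergic receptor (0.85), Car2 (0.85), Nsdhl, a cholesterol synthesis enzyme (0.85), P4ha1 (0.84), Mpi (0.83), Uroc1, which degrades urocanate in histidine breakdown (0.83), and Hao2, a hydroxyacid oxidase (0.83). Only Kcnk5 was also among the 10 highest without StressPbs replicate 6, where Cp, the copper protein ceruloplasmin (0.94), Adamtsl2 (0.94) and Cdr2 (0.93) came first. Kcnk5 was at 25.5 FPKM in Ctrl, 50.7 in StressPbs and 40.8 in StressFlx, and at 9.48 in StressPbs replicate 6. The lowest values were for Gm12781 (-0.86), Nt5dc2 (-0.85), Gm41396 (-0.84), Bnip5 (-0.84) and Tfap4 (-0.83). Between the 2 members r over 18 mice was -0.28.

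With group means subtracted, Slc7a12 was most like Slc22a13b (0.98), Hao2 (0.98), Aqp1, the water channel of the proximal tubule (0.97), Gm45875 (0.97) and Serpina1f (0.96), and least like Qsox1 (-0.92), H6pd (-0.92), Slc43a3 (-0.92) and Hsd17b4 (-0.92). Without StressPbs replicate 6 these lay between 0.74 and 0.86 and between -0.66 and -0.48. Aqp1 was at 339 FPKM in Ctrl, 291 in StressPbs and 345 in StressFlx, and at 105 in StressPbs replicate 6.

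Segment and cell markers differed in StressPbs replicate 6, and single genes of some lists were called between groups. Over all tested genes edgeR called 2.45% higher and 1.82% lower in StressPbs versus Ctrl. The shares were 0.226% and 0.331% in StressFlx versus StressPbs and 1.01% and 0.762% in StressFlx versus Ctrl. In lists this short, 0 calls are near these shares. The 7 S3 markers had 0 called genes by edgeR, DESeq2 or limma in any of the 3 comparisons, with 1 lower at an unadjusted p under 0.05 in StressPbs versus Ctrl and 0 in the others. Their summed FPKM was 561 to 739 in Ctrl, 386 to 583 in the other 5 StressPbs mice and 444 to 818 in StressFlx. The 7 S1 (early proximal tubule) markers summed to 736 FPKM in StressPbs replicate 6 and 1038 to 1458 in the other 17 mice. Of them, 0 were called in StressPbs versus Ctrl (1 higher at an unadjusted p under 0.05, 0 by DESeq2 or limma, Gatm higher without StressPbs replicate 6), and Slc6a19, listed above, was lower in StressFlx. Of 9 markers of other nephron segments Calb1, the calcium-binding protein of the distal tubule, rose in StressPbs versus Ctrl, from 64.3 ± 8.4 to 125 ± 27.1 FPKM (log2 fold change 0.96, edgeR adjusted p = 0.00296), and it was at 93.0 ± 20.3 FPKM in StressFlx.

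Of 6 tubule injury genes, 2 rose in StressPbs versus Ctrl, where 2.45% of all tested genes were called higher. They were Spp1 (osteopontin, log2 fold change 1.72, edgeR adjusted p = 0.0198) and Lcn2 (neutrophil gelatinase-associated lipocalin, 3.07, edgeR adjusted p = 0.0373). Without StressPbs replicate 6 only Spp1 did (0.91, edgeR adjusted p = 0.00797). With only the 2 groups compared and with only the 2 deeper StressFlx mice neither was called (Spp1 edgeR adjusted p = 0.0674 and 0.0527). Lcn2 was also not called by limma or with the replicate block, and DESeq2 gave it no adjusted p. Vcam1, an adhesion molecule, was higher in StressFlx than in Ctrl (0.83, edgeR adjusted p = 0.0379), where 1.01% of all tested genes were called higher. With only the 2 deeper StressFlx mice it was at 0.59 (edgeR adjusted p = 0.514), and with the replicate block at 0.80 (edgeR adjusted p = 0.083). Of 7 neutrophil genes 4 were tested and 4 rose in StressPbs versus Ctrl, 3 without replicate 6. This stands against the same 2.45% of all tested genes (2.14% without it). DESeq2 called 4 higher and limma 3. Ngp, 1 of the 4, was at 0 FPKM in every Ctrl mouse and passed the filter on low counts only through defeated mice. The count of 4 was therefore partly set by that filter. S100a8, a calgranulin, went from 0.508 ± 0.337 to 6.96 ± 7.74 FPKM and was at 22.1 in replicate 6. It fell in StressFlx versus StressPbs, to 0.459 ± 0.4 FPKM (edgeR adjusted p = 0.0275, and 0.718 with only the 2 deeper StressFlx mice). Nor was this fall called with the replicate block or with only the 2 groups compared (edgeR adjusted p = 0.115 and 0.0587). The summed FPKM of the list was 1.05 to 3.06 in Ctrl, 6.84 to 25.5 in the other 5 StressPbs mice, 65.0 in replicate 6 and 0.166 to 4.97 in StressFlx.

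Fat and adrenal tissue next to the kidney were also checked. The 5 brown fat genes summed to 5.96 to 70.9 FPKM in Ctrl, 13.4 to 685 in StressPbs and 11.6 to 331 in StressFlx. Of them 1, Elovl3, was called higher in StressPbs versus Ctrl by edgeR (adjusted p = 0.0273), where 2.45% of all tested genes were. DESeq2 also called Elovl3, and limma and the fit with the replicate block (edgeR adjusted p = 0.0517) did not. For the white fat and adrenal lists below, 0 calls are near the shares over all tested genes. The 5 white fat genes summed to 13.8 to 211, 38.9 to 1071 and 37.1 to 1221 FPKM, with 0 called by edgeR, DESeq2 or limma in the 3 comparisons and 1 higher at an unadjusted p under 0.05 in StressPbs versus Ctrl and 1 in StressFlx versus Ctrl. Of the adrenal cortex genes 2 of 6 were tested and edgeR called 0 in the 3 comparisons, where 1 was higher in StressPbs versus Ctrl and 1 lower in StressFlx versus StressPbs at an unadjusted p under 0.05, DESeq2 called 1 higher in the former and limma 0. Star, of adrenal steroid synthesis, was at 0.550 ± 0.149 FPKM in Ctrl, 0.809 ± 0.220 in StressPbs and 0.642 ± 0.1 in StressFlx, and Cyp11b1, which defines the adrenal cortex, was at or below 0.42 FPKM in every mouse. The part of these cell and tissue differences in the levels of Slc7a12 and Gm6300 was not tested.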

How the data were processed

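Poly(A) RNA of right kidneys was sequenced in pairs of 150-base reads, 18 mice in 3 groups of 6 as given by the sample titles. Per the study's methods the authors used fastp for read cleaning, HISAT-3N for alignment to GRCm38, and StringTie for FPKM. The submitters' processing notes name cutadapt 1.9, HISAT2 2.0.4, UMI-tools, StringTie 1.3.4d, DESeq2 and edgeR. The authors deposited FPKM and estimated counts per gene and mouse, and the methods and labels read here name no tool for counting. The deposited estimated counts were whole, yet 4 counts were found for 720 genes (median over mice), 3 counts for 484.5 and 5 counts for 268, so they may count read ends. Per the labels, replicates are separate mice.

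Counts of all 18 mice were fitted with edgeR 4.0.16 (R 4.3.3; TMM scaling, filterByExpr, quasi-likelihood test, 1 model over the 3 groups), with Benjamini-Hochberg adjustment over 19946 genes (20251 without StressPbs replicate 6) and calls at an adjusted p under 0.05. The fit was checked on simulated counts. Alternatives included DESeq2 1.42.0, limma 3.58.1 on log2(FPKM + 0.1), other scalings, a replicate block and leaving out each mouse. Correlations used log2(FPKM + 0.1) and permutations within groups, adjusted over 12 relations separately for r and rho. Named are the 2 members, genes within 500 kb, the 10 most and 5 least alike genes for each member (5 and 5 with group means subtracted), and of each list called genes (up to 6) or else up to 4 by mean FPKM. Some genes that this rule would name are not reported here. Further genes, named because a statement turned on them, were chosen after their values were seen, among them the 3 most like Slc7a12 without StressPbs replicate 6. The lists share Slc7a13, Cyp7b1, Slc22a7, Slc6a19 and Prlr. Members and lists were chosen with earlier results of these data known. Sequences were read from GENCODE transcripts on GRCm38 and aligned with Biopython 1.88.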

Additional observations from a re-analysis of the deposited data

Results flagged for a closer look

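StressPbs replicate 6 was set apart for both measures below, by a gap to its nearest neighbour that took up more of the group's range than the critical value of 0.625 for 6 mice. For the log2 FPKM of Slc7a12 the gap was 0.762 of the range in StressPbs, with the mouse at 0.708 FPKM and the other 5 at 12.2 to 28.7. For the mean log2 level of the male-biased list it was 0.781, with the mouse at -2.05 and the others at -0.62 to -0.22. In all, 12 combinations of measure and group were examined, and chance alone sets a mouse apart in about 1 in 20 such groups. The ratio of Slc7a12 to Gm6300 did not set this mouse apart, as its log2 ratio of 2.68 lay within the 2.43 to 4.13 of the other 5 StressPbs mice. For Gm6300 the gap was 0.589 of the range.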

How the results depend on the processing

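The numbers of genes called moved by more than 1.5 times under several settings. In StressPbs versus Ctrl 853 genes were called, against 1629 with DESeq2, 343 with only the 2 groups compared, 486 with only the 2 deeper StressFlx mice, replicates 1 and 2 and 432 to 1724 with 1 mouse left out (432 without Ctrl replicate 5, 1724 without Ctrl replicate 3). In StressFlx versus StressPbs 111 were called, against 69 without the filter on low counts, 526 with DESeq2, 255, 262 and 237 with limma on log2(FPKM + 0.1), + 1 and + 0.01, 10 with only the 2 groups compared, 0 by edgeR with only the 2 deeper StressFlx mice (1265 at an unadjusted p under 0.05) and 33 to 192 with 1 mouse left out (33 without StressFlx replicate 6, 192 without Ctrl replicate 3). In StressFlx versus Ctrl 354 were called, against 162 without the filter, 1047 with DESeq2, 716, 735 and 692 with limma, 717 with only the 2 groups, 2 with the deeper StressFlx mice and 68 to 2103 with 1 mouse left out (68 without Ctrl replicate 2, 2103 without Ctrl replicate 3). Fewer mice enter some of these fits, and beyond that the cause was not tested. The listed genes called in StressFlx versus StressPbs were 6, or 11 with DESeq2.

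With the replicate number as a block, 539, 48 and 99 genes were called, of which 522, 45 and 98 were among the 853, 111 and 354. Deviations of same-numbered mice had a median correlation of -0.017 over 18 pairs (range -0.25 to 0.29). Over 90 pairs with other numbers it was 0.000116 (range -0.27 to 0.21). These values show no closer likeness of same-numbered mice, but they cannot show what the numbers stand for. The block left the log2 fold changes of both members with the same sign.

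No alternative moved a log2 fold change of Slc7a12 or Gm6300 by more than the spread within groups (SD 1.2 and 1.08) or changed its sign. That spread is wider than the change of Slc7a12 in StressFlx versus StressPbs (-1.12) and of Gm6300 in StressFlx versus Ctrl (-0.62). For these the spread criterion could not show a loss. The ranges follow for Slc7a12 and Gm6300. With 1 mouse left out the log2 fold changes were 3.09 to 3.49, -1.37 to -0.97 and 1.9 to 2.25 for Slc7a12 and -4.23 to -3.52, 2.86 to 3.61 and -0.91 to -0.45 for Gm6300, in StressPbs versus Ctrl, StressFlx versus StressPbs and StressFlx versus Ctrl. Pearson's r with group means subtracted and 1 mouse left out ranged from -0.16 to 0.70 for both genes, -0.28 to 0.78 for Slc7a12 with the male-biased list and 0.93 to 0.96 for Gm6300 with it, and of these leave-one-out values for the first 2 relations the one without StressPbs replicate 6 was negative. In single groups, leaving out the 2 farthest mice turned the sign to -0.043 and 0.98 for both genes in StressPbs and StressFlx and to 0.99 for Slc7a12 with the list in StressFlx. Of the 10 genes most like Slc7a12, 8 remained on the log2(FPKM + 1) scale and 1 without StressPbs replicate 6, and of those most like Gm6300, 7 and 8. The values of StressPbs replicate 6 rest on 106 and 14 counts.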
